A study of Homo sapiens with 4 samples.

Results

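CD34, CD38, CD4, CSF2RB, ID2 and IGF2BP3 are 6 of the 426 genes in the table analysed here, which holds the genes that the authors called as changed in MEG-01 cells depleted of OGT. They were taken by symbol, as genes of progenitor and blood-cell identity, and fall into 4 surface receptors (CD34, CD38, CD4 and CSF2RB) and 2 progenitor regulators (ID2 and IGF2BP3). MEG-01 is a human megakaryoblastic leukaemia line that releases platelet-like particles, and its total RNA was sequenced in 4 libraries. The OGT-depleted group had 2 libraries of genotype OGT depletion, titled CR_OGT and described in the design text as a CRISPR/Cas9 knockdown of OGT, the enzyme that puts O-GlcNAc on nuclear and cytosolic proteins. The WT group had 2 libraries of the same line with genotype WT, grown in the same serum-containing RPMI medium. The sources used here do not give the guide, whether the depleted cells were a single clone or a pool, or whether WT cells carried a control vector. The treated columns are headed OGTi, a term that the sources used here do not explain, and were matched to the CR_OGT titles by number.

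Blood progenitors are recognised by proteins on their surface, and the mix of these changes as cells commit to a lineage. CD34 is a sialomucin of stem and progenitor cells, CD38 is an ectoenzyme that consumes NAD and marks progenitors past the most primitive stage, and CSF2RB is the signalling chain common to the GM-CSF, IL-3 and IL-5 receptors. CD4 is the co-receptor of helper T cells and is also found on monocytes and on some progenitors and leukaemic myeloid cells. ID2 lacks a DNA-binding region and ties up E proteins, the transcription factors that bind E-boxes. IGF2BP3 is an oncofetal protein that binds mRNAs and alters their stability and translation.

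All 6 genes are in the table because the authors' test called them in these same libraries, so their differences between the groups are given below as a description, and no test on these libraries can support them. The authors' deposited table gives adjusted p-values of 1.54e-05 for CSF2RB, 5.34e-05 for ID2, 0.000898 for IGF2BP3, 0.00245 for CD34, 0.0138 for CD38 and 0.0482 for CD4. CD4 stood just inside the threshold, as 411th of 426 genes by that value, where the highest was 0.0497. Genes outside the threshold are not analysed here. Counted reads, recovered from the FPKM values, numbered 17643474 to 19883586 per library. OGT transcript, the check of the labels, had 9124 and 12185 normalized counts in OGT-depleted cells, against 16012 and 19190 in WT cells. The transcript was thus lowered in part, and OGT protein is not measured in these libraries. OGT is itself among the called genes, so this check is not independent of the authors' test. Of 18 megakaryocyte markers only TUBB1 and F2R are in the table, so the identity of the line could not be checked against its defining genes. In bulk RNA, fewer cells that express a gene cannot be told apart from less RNA per cell. The labels do not say that replicates were separate cultures, so the spread between them may be technical.

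Promoter sequence in RefSeq (GRCh38.p14) was found for 4 of the 6 genes and is shown because the receptors and the regulators differ in direction. CD4 and CSF2RB have no entry in that table. Each line gives the 250 bases before the first transcription start listed for the gene, 5′ to 3′ on the gene's strand. Any other starts were not examined, and the start used in MEG-01 cells was not determined. Capitals mark E-boxes (CANNTG), CCAAT boxes (CCAAT) and GATA words (AGATAA, with T also allowed as its first base and G as its last), searched on both strands. The windows are chr1:207911126-207911375 on the minus strand for CD34, chr4:15778078-15778327 on the plus strand for CD38, chr2:8681806-8682055 on the plus strand for ID2 and chr7:23470492-23470741 on the minus strand for IGF2BP3.
CD34: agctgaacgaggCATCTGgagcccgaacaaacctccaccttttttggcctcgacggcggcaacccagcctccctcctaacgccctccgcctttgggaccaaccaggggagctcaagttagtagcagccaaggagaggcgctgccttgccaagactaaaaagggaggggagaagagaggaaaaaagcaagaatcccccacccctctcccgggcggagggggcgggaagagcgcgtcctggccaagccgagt
CD38: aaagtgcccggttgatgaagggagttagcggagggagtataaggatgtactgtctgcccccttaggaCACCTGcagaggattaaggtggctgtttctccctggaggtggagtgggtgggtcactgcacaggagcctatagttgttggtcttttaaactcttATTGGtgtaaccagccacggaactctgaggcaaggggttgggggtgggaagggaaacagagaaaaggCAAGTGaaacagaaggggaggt
ID2: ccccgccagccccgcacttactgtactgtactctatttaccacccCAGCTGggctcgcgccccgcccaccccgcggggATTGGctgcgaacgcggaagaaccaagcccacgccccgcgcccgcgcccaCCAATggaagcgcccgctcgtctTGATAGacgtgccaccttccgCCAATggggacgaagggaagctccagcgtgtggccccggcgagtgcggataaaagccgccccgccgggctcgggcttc
IGF2BP3: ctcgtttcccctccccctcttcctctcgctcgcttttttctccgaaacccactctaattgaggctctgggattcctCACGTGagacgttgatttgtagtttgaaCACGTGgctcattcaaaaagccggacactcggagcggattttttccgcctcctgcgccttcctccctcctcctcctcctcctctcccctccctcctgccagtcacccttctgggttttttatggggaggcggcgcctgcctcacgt

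Each of the 4 windows held some motif more than once. The ID2 window had 3 CCAAT boxes, at 172, 122 and 78 bases before the start, a number reached by 2.93% of the 35116 promoter windows of the same length. The IGF2BP3 window had 2 copies of CACGTG, the palindromic form of the E-box, at 174 and 146 bases before the start, and 0.535% of windows held that many. At least 1 E-box of any kind was in 61.8% of windows, and CD34 and ID2 each had 1. CD38 had 2, and 28.3% of windows held at least 2. A GATA word, the letters bound by the GATA factors of megakaryocytes and erythroid cells, was found in ID2, as in 22.3% of windows, and not in the CD34, CD38 or IGF2BP3 windows. CD38 had 1 CCAAT box, and 32.0% of windows held at least 1. GC boxes (GGGCGG, either strand) numbered 2 in CD34 and 2 in ID2, a number reached by 24.3% of windows, and there was none in CD38 or IGF2BP3. G and C made up 69.2% of the ID2 window, 61.6% of CD34, 56.8% of IGF2BP3 and 52.4% of CD38, around a median of 58.0%. No match to TGTGGT (a RUNX word), TATAAA or an ETS word (CCGGAAG, with A also allowed as its first or its second base) was found in these 4 windows. A match is a description of the letters and says nothing of binding.

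In OGT-depleted cells all 4 surface receptors were lower, each library lying below both WT libraries. The groups did not overlap for any of the 6 genes, as for 100% of the 426 listed genes, which were chosen as different in these libraries. CD34 (ENSG00000174059, chromosome 1, 208057594 to 208084747 in hg19, minus strand) had 5382 and 5703 normalized counts in OGT-depleted cells, against 8196 and 7914 in WT cells. It stood at 68.8% of WT, and the replicates of each group lay close together, with a coefficient of variation of 4.10% in OGT-depleted cells and 2.48% in WT cells. The depleted library nearest to WT was at 72.1% of the lower WT library, so the gap between the groups was wider than either spread.

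CSF2RB (ENSG00000100368, chromosome 22, 37309670 to 37336491, plus strand) had the largest relative difference of the receptors. Its normalized counts were 2581 and 2890 in OGT-depleted cells, against 4342 and 5448 in WT cells, so that the depleted mean was 55.9% of WT. The WT libraries differed 1.25-fold from each other, and the groups were separated by 1.5-fold at their closest. Among the 178 listed genes that were lower, CSF2RB ranked 32nd by size of difference.

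CD38 (ENSG00000004468, chromosome 4, 15779898 to 15851069, plus strand) was the least abundant receptor. It had 449 and 475 normalized counts in OGT-depleted cells, against 657 and 834 in WT cells, a mean of 62.0% of WT. The OGT-depleted libraries were nearly alike (coefficient of variation 4.04%), while the WT libraries varied more (16.8%).

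CD4 (ENSG00000010610, chromosome 12, 6896024 to 6929974, plus strand) had the smallest relative difference, both of the 4 receptors and of all 178 lower genes in the table. Its normalized counts were 1843 and 1950 in OGT-depleted cells, against 2554 and 2590 in WT cells, a mean of 73.7% of WT. The WT libraries differed 1.01-fold from each other, the least of the 6 genes.

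Both regulators were higher in OGT-depleted cells. ID2 (ENSG00000115738, chromosome 2, 8818975 to 8824583, plus strand) had 2208 and 1841 normalized counts in OGT-depleted cells, against 1225 and 1020 in WT cells. The mean was 180.4% of WT, and replicates differed 1.20-fold within each group, less than the 1.5-fold that parted the groups at their closest.

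IGF2BP3 (ENSG00000136231, chromosome 7, 23349828 to 23510086, minus strand) had 369 and 571 normalized counts in OGT-depleted cells, against 192 and 240 in WT cells. Its mean was 2.18-fold higher, and its OGT-depleted libraries varied the most of the 6 genes. They differed 1.55-fold from each other, as much as the 1.54-fold that parted the groups at their closest. By size of difference IGF2BP3 ranked 82nd and ID2 137th of the 248 listed genes that were higher.

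**Figure D1:**
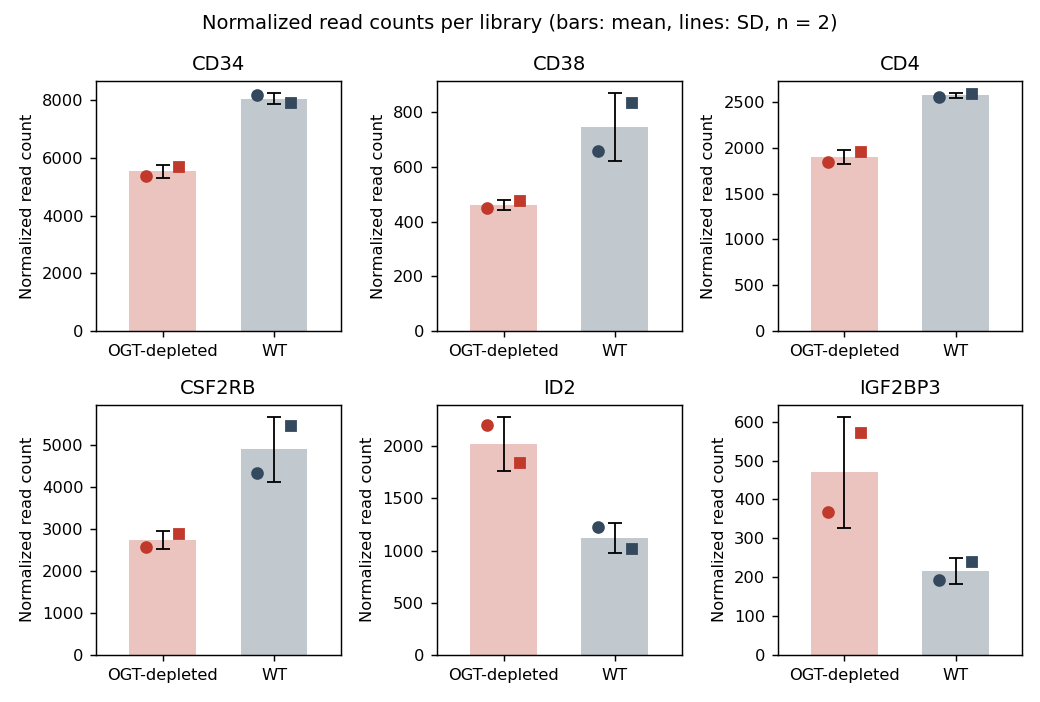
Normalized read counts (vertical axes, from 0) of the 6 genes in OGT-depleted and WT cells, with circles for replicate 1, squares for replicate 2, bars for the mean and lines for the SD of 2 libraries. The receptors CD34, CD38, CD4 and CSF2RB are lower and ID2 and IGF2BP3 higher in both OGT-depleted libraries, and the depleted libraries of IGF2BP3 lie far apart (369 and 571).

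On the FPKM scale, which divides counts by the deposited gene length, CD34 was the highest of the 6 in every library. The order between genes rests on these lengths. For CD34 and CD38 they were 2874 and 1884 bases, against 9219 and 6855 exonic bases in the GENCODE 29 annotation. For CSF2RB and ID2 they were 4866 and 2041 bases, against 5000 and 2205. With other lengths the order of the genes could differ. CD34 averaged 104.6 ± 7.37 FPKM in OGT-depleted cells and 149.9 ± 2.30 FPKM in WT cells (SD, n = 2 each). IGF2BP3 was the lowest in every library, at 6.02 ± 2.01 FPKM in OGT-depleted cells and 2.73 ± 0.539 FPKM in WT cells. By WT level, CD34 was 20th and IGF2BP3 338th of the 426 listed genes, whose median was 11.7 FPKM.

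The order between these ends was not the same in the 2 groups. ID2 was second in both OGT-depleted libraries, with 57.4 and 49.9 FPKM, and stood below CSF2RB and CD4 in both WT libraries, with 31.2 and 27.5 FPKM. In OGT-depleted cells ID2 was thus above CD4 (31.4 and 34.7 FPKM) and CSF2RB (28.2 and 32.9 FPKM), and in WT cells it was below CD4 (42.7 and 45.8 FPKM) and CSF2RB (46.4 and 61.6 FPKM). CD4 and CSF2RB were neighbours in both groups, with CD4 the higher in each OGT-depleted library and CSF2RB the higher in each WT library. Their ranges over libraries overlapped in OGT-depleted cells and did not in WT cells. CD38 was above only IGF2BP3 throughout, with 12.7 and 14.0 FPKM in OGT-depleted cells and 18.1 and 24.4 FPKM in WT cells. ID2 and CD38 were neighbours in WT cells, where 27.5 and 24.4 FPKM in replicate 2 were close. Of the summed FPKM of the 6 genes, ID2 and IGF2BP3 made up 26.5% and 23.1% in OGT-depleted cells, against 11.6% and 9.75% in WT cells.

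**Figure D2:**
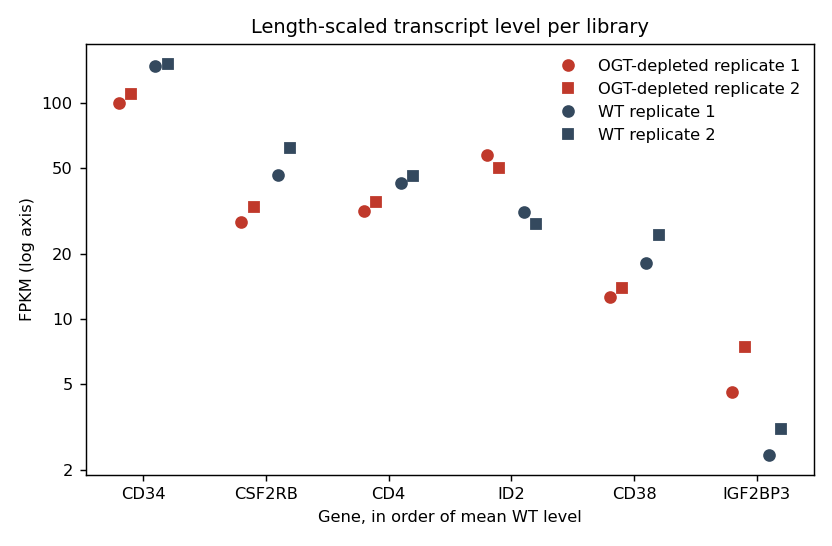
FPKM (logarithmic vertical axis) of the 6 genes in each library, with genes ordered by mean WT level, OGT-depleted libraries in red to the left of WT libraries in blue-grey. ID2 lies above CSF2RB and CD4 in the OGT-depleted libraries and below them in the WT libraries, while CD34 is the highest and IGF2BP3 the lowest gene in all 4 libraries.

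The contrast between receptors and regulators can be read within a library, where a ratio of 2 genes carries no scaling factor. The FPKM of CD34 over that of ID2 was 1.73 and 2.20 in OGT-depleted cells, against 4.75 and 5.51 in WT cells. That of CSF2RB over IGF2BP3 was 6.12 and 4.42 in OGT-depleted cells, against 19.8 in both WT libraries. Over the 8 pairs of a receptor with a regulator, the mean ratio in OGT-depleted cells was between 26.6% (CSF2RB to IGF2BP3) and 40.9% (CD4 to ID2) of that in WT cells. The groups did not overlap in any of the 8 pairs, which the choice of lower receptors and higher regulators largely fixes.

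Ratios within the receptors differed less, though 5 of the 6 pairs of receptors did not overlap between the groups. The 6 pairs reuse the same 4 genes, and the share over other pairs of listed genes was not computed. Nothing is read from this count. CD34 over CD4 was 3.16 and 3.17 in OGT-depleted cells, against 3.48 and 3.31 in WT cells. CD34 over CSF2RB was 3.53 and 3.34 in OGT-depleted cells, against 3.20 and 2.46 in WT cells. CD34 over CD38, the pair that overlapped, was 7.86 in both OGT-depleted libraries, inside the 6.22 to 8.18 of the WT libraries. CSF2RB over CD38 was 2.23 and 2.35 in OGT-depleted cells, against 2.56 and 2.53 in WT cells. CD4 over CD38 was 2.48 in both OGT-depleted libraries, against 2.35 and 1.88 in WT cells. CSF2RB over CD4 was 0.896 and 0.949 in OGT-depleted cells, against 1.09 and 1.35 in WT cells, so these genes changed places. The regulators did not keep apart by group: ID2 over IGF2BP3 was 12.5 and 6.71 in OGT-depleted cells, against 13.3 and 8.85 in WT cells, with overlapping ranges.

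**Figure D3:**
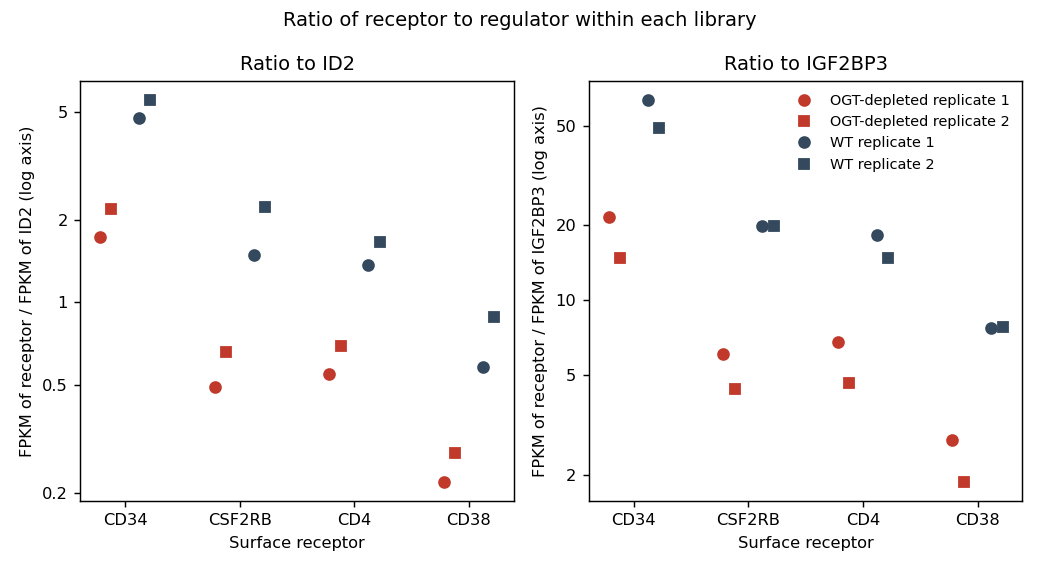
FPKM of each receptor divided by the FPKM of ID2 (left) or IGF2BP3 (right) in the same library, on logarithmic vertical axes, with OGT-depleted libraries in red and WT libraries in blue-grey. Each OGT-depleted ratio lies below both WT ratios of its pair, for example 1.73 and 2.20 against 4.75 and 5.51 for CD34 over ID2.

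A refit of all 426 listed genes with edgeR's quasi-likelihood model gave log2 fold changes (OGT-depleted over WT, SE in the fit) of -0.84 ± 0.14 for CSF2RB, -0.69 ± 0.15 for CD38, -0.54 ± 0.12 for CD34 and -0.44 ± 0.11 for CD4. Those of the regulators were 0.85 ± 0.14 for ID2 and 1.12 ± 0.21 for IGF2BP3. The medians were -0.63 over the 178 lower and 0.90 over the 248 higher genes of the table, so CSF2RB, CD38 and IGF2BP3 were beyond the median of their direction and CD34, CD4 and ID2 within it. At an adjusted p under 0.05 the refit called 3 of the 4 receptors lower, where 31.9% of the listed genes were called lower, and 2 of 2 regulators higher, where 50.2% were. CD4 was the receptor without a call. The authors' calls took in 1.35% of an estimated 13154 tested genes as lower and 1.89% as higher. The members were chosen from this contrast, so nothing is read from these counts. With all 4 libraries the refit called 136 of the 426 genes lower and 214 higher. Without WT replicate 1 it called 21 lower and 65 higher, with CSF2RB and ID2 of the 6 genes among them, and without WT replicate 2 it called 5 lower and 32 higher, with 0 of the 6 among them.

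The size of the differences changed little with library totals and more with factors taken from the listed genes alone. Library totals shifted the log2 fold changes of the listed genes by a median of 0.02. With TMM factors or DESeq2 size factors taken from the listed genes alone, the median shift was -0.21 or -0.49. Such factors treat the bulk of these genes as unchanged. All were chosen as changed, and their median log2 fold change was 0.56 in the main fit. A shift toward lower values is thus built into these factors. The 6 genes moved in that direction. ID2 then had log2 fold changes of 0.64 and 0.36, and CD34 had -0.75 and -1.02. CD4 was called lower under both of these, IGF2BP3 was not called under TMM, and ID2 was not called under DESeq2 size factors. The sign of each of the 6 genes was the same under all 4 scalings, which the choice of genes largely fixes.

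**Figure D4:**
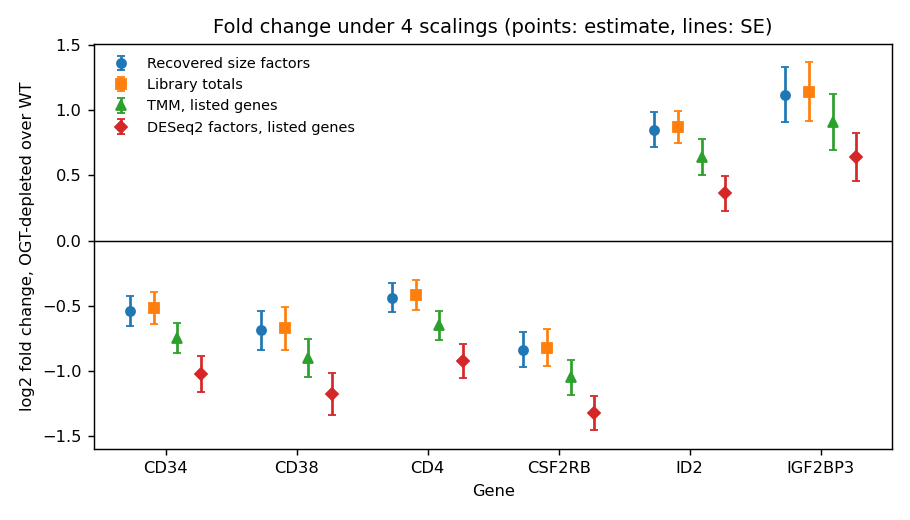
Log2 fold change of each gene, OGT-depleted over WT, with its SE, under 4 ways to scale the libraries. All points of CD34, CD38, CD4 and CSF2RB are below 0 and all points of ID2 and IGF2BP3 above it, while the scalings drawn from listed genes lie lower than the other 2, for ID2 at 0.64 and 0.36 against 0.85 and 0.87.

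Partners of these genes were looked up among the listed genes. Every listed gene was called by the authors, whose calls took in 1.35% of an estimated 13154 tested genes as lower and 1.89% as higher. Calls named here and for the genes below are those of the edgeR refit. It called 31.9% of the listed genes lower and 50.2% higher. The lists were chosen around the members, so nothing is read from these counts. Of 36 cytokine receptor genes, CSF2RB and IL1RL1 were listed, and IL1RL1, the IL-33 receptor, was at 171.7% of WT, so that 1 was called lower and 1 higher. The ligand-binding chains that pair with CSF2RB (CSF2RA, IL3RA and IL5RA) and all 27 genes of JAK-STAT signalling, the route through which such receptors act, were not among the listed genes. Of 14 sialomucins and selectin ligands, CD34 and PODXL were listed. PODXL, podocalyxin of the CD34 family, had 520.1 and 577 normalized counts in OGT-depleted cells, against 888 and 1012 in WT cells, and both genes were called lower. Of 24 NAD and nucleotide enzymes, CD38 and the peptidase DPP4, which binds adenosine deaminase, were called lower, DPP4 at 45.6% of WT. NAPRT1, which makes a NAD precursor from nicotinic acid, was at 146.1% of WT without a call. CD4 was the listed member among 26 T-cell receptor and co-receptor genes.

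Partners of the regulators were looked up in the same way, and calls are again those of the refit. Of 22 genes of the ID and E-protein network, ID2 and BHLHE40 were listed. BHLHE40, a helix-loop-helix repressor, had 4936 and 4978 normalized counts in OGT-depleted cells, against 7715 and 7099 in WT cells, and was called lower, opposite to ID2. ID1, ID3 and the E-protein genes TCF3, TCF4 and TCF12 were not among the listed genes. Of 21 IGF2BP family and fetal growth genes, IGF2BP3 was called higher and IGFBP4, which binds insulin-like growth factors, lower at 66.6% of WT. HMGA1, a chromatin protein of fetal tissues, and IGF2R, which clears IGF2, were at 137.8% and 147.8% of WT without a call. Of 38 stem and progenitor genes, CD34 was called lower, ID2 and IGF2BP3 higher, and the adhesion receptor gene GPR56 was at 71.3% of WT without a call. The median log2 fold change of these 4 was 0.18, beside 0.56 over all 426 listed genes.

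Other surface antigens of leukocytes also differed in both directions. Of 64, 7 were listed, of which the refit called 2 lower and 3 higher, with a median log2 fold change of -0.44. Over all 426 listed genes the refit called 31.9% lower and 50.2% higher. Calls of the cell type markers below are also those of the refit, and nothing is read from these counts. The integrin genes ITGAL and ITGB7 were at 47.4% and 60.3% of WT, near CSF2RB and CD38 in size, while CD99 was at 208.6%, CD276 at 147.2% and MCAM at 230.4% of WT. CD109 and ITGAM were at 67.2% and 73.6% of WT without a call. Markers of other blood cells were listed beside the members: 8 of 19 for mast cells and basophils (2 called lower, 6 higher), 3 of 19 erythroid (1 lower, 2 higher), 2 of 21 lymphoid (1 higher, with CD4 itself the other) and 1 of 19 for monocytes and granulocytes (none called). The median log2 fold change of the 8 mast cell and basophil markers was 1.23, with the tryptase genes TPSG1, TPSAB1 and TPSB2 at 432.1%, 386.5% and 320.7% of WT and the IgE receptor gene FCER1A at 60.8%. TPSAB1 and TPSB2 are near-identical copies whose separate counts are uncertain. Summed over all 8 mast cell and basophil markers, FPKM was 260.5 to 284.7 in OGT-depleted cells against 273.6 to 316 in WT cells. This sum did not follow the median of 1.23. For the 3 listed erythroid markers the summed FPKM was 228.4 to 270.3 in OGT-depleted cells against 109 to 122 in WT cells. These markers went both ways, with HBE1 at 331.8%, CA2 at 156.1% and KEL at 68.1% of WT. The lymphoid sum, 39.2 to 40.7 in OGT-depleted cells against 43.9 to 47.6 in WT cells, was mostly CD4 itself, and the other lymphoid gene, the granzyme GZMA, was at 441.4% of WT. ITGAM, the monocyte and granulocyte marker, had 35.3 to 40.2 FPKM in OGT-depleted cells against 47.4 to 54.0 in WT cells. None of these listed markers was at 0, and their part in the differences of the 6 genes was not tested.

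Over the 4 libraries, the nearest companions of each gene were sought among the listed genes. Nearness was the distance between log2 normalized counts centred on each gene's mean. The nearest to CD34 was TCTEX1D1 (distance 0.036, against a median of 1.12 to all other listed genes), then STK17B and INPP5B. Among those close to CD38 were ATP7B, a copper transporter gene, and RAB44. CD4 was closest to PITRM1, GPR56 and ITGAM, the last a myeloid integrin, at distances of 0.035 to 0.069. CSF2RB was closest to SMAD6 (0.042), an inhibitor of BMP signalling, then to PODXL and SRPK3. ID2 was closest to ZC3H15 (0.058), the glycolytic aldolase gene ALDOC and the Mediator gene MED30. IGF2BP3 had the most distant companions, SCML2 (0.149), HMCN1 and NBEAP1. This likeness rests on 4 libraries and combines the difference between the groups with that between replicates. The nearest of many genes is bound to lie below the median distance, which includes genes that changed the other way. All listed genes were chosen from this contrast, so closeness is a description only.

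The 6 genes lie on 6 chromosomes and are not neighbours of one another. In hg19 positions, the nearest other listed gene was 0.620 Mb from CSF2RB (CDC42EP1, also lower) and 1.36 Mb from IGF2BP3 (CDCA7L, also higher), and between 3.44 and 21.9 Mb from the rest. The nearest to ID2 (FOSL2) was also higher, while those nearest to CD34 (HMCN1), CD38 (FGFR3) and CD4 (GABARAPL1) were higher, opposite to these receptors. In the GENCODE 29 annotation, MALSU1 runs toward IGF2BP3 on the opposite strand and shares 1521 of its 8511 exonic bases, and ID2-AS1 shares 38 of the 2205 exonic bases of ID2. The deposited length of IGF2BP3 was 4250 bases, and whether the gene model used for counting holds the shared stretch was not checked. Whether the counting used strand is not stated in those sources. If it did not, reads of MALSU1 in a counted shared stretch cannot be told apart from those of IGF2BP3. CD34 has an antisense gene, AL356275.2, that shares none of its exonic bases, and no annotated gene overlaps CD38, CD4 or CSF2RB.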

How the data were processed

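Total RNA of MEG-01 cells was sequenced from NEBNext Ultra RNA libraries, per the labels' protocols. The submitters' processing notes list CASAVA 1.8, STAR 2.5, TopHat, DESeq2 and hg19 and give no roles. The read counter and annotation are not stated in those sources. The authors deposited raw read counts, FPKM values, group means as a normalized signal, shrunken log2 fold changes, p-values and adjusted p-values for called genes only. Library totals were recovered from count, length and FPKM, and size factors from the group means; normalized counts are counts over these factors. All 426 genes were refitted with edgeR 4.0.16 in R 4.3.3 (glmQLFTest; filterByExpr; Benjamini-Hochberg over 13154 genes, recovered from deposited p-values; call at 0.05; SE is the absolute log2 fold change divided by the root of F), after a test on simulated data. Depth was 17643474 to 19883586 counted reads. Alternatives were other scalings, count filters, DESeq2, adjustment over listed genes, a replicate block and leaving out each library. The 6 genes, the lists and the motifs were chosen with earlier results of these data known. Genes were named if they were members, list genes in the table, or 1 of the 3 nearest profiles of a member; list symbols were matched by symbol or Ensembl ID. One of the nearest profiles is not reported here.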

Additional observations from a re-analysis of the deposited data

How the results depend on the processing

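All 84 alternative values of the 6 log2 fold changes had the reported sign, which the choice of genes with groups that do not overlap largely fixes; count filters and the adjustment leave the fold change as it is. With the replicate number as a block, edgeR called 0 lower and 0 higher of all 426 genes, and so 0 of the 4 receptors and 0 of the 2 regulators. The log2 fold changes of the 6 genes hardly moved and their SE fell, for ID2 from 0.14 to 0.046. Their adjusted p-values in this edgeR fit were 0.063 to 0.107. A block in 4 libraries leaves few degrees of freedom, so the fit cannot settle whether the differences hold. Replicates 1 and 2 deviated alike in both groups (Pearson r = 0.50 across 426 genes, which are not independent), a hint from the data. The labels do not say what a number marks, so whether same-numbered libraries share a source is unknown. With TMM factors from the listed genes 1 regulator was called higher (ID2), where calls of higher genes fell to 135 of the 426, and with DESeq2 size factors from them 1 (IGF2BP3), where they fell to 77, against 2 regulators and 214 genes. Calls of lower genes numbered 178 under both, against 136, and CD4 was called lower under both, in DESeq2's test and when adjusted over the listed genes only. Leaving out each library in turn gave 0 to 3 receptors called lower, among 5 to 122 lower genes in all, and 0 to 2 regulators called higher, among 32 to 223 higher genes, the lowest of each without WT replicate 2. Library totals, no filter and a minimum of 100 counts left both counts as they were. Apart from the shift built into factors from listed genes, the cause of these changes was not tested. Over the 4 omissions the log2 fold change of IGF2BP3 ran from 0.77 without OGT-depleted replicate 2 to 1.40 without OGT-depleted replicate 1, and that of CSF2RB from -0.99 to -0.67. The lowest count of the 6 genes in a library was 182 reads, for IGF2BP3. The refit covered called genes only, so its dispersion comes from genes selected as changed, and leaving out a library leaves 1 in a group, assumed to vary like the other.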
